A study of Drosophila melanogaster with 18 samples.

Results

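The Hsp70 and Hsp90 chaperone genes described here are 9 of the 17411 genes counted in Drosophila melanogaster larvae of the last larval stage (L3) that overexpressed the kinase NUAK in muscle. They were listed by family and taken by their FlyBase identifiers, and the list was made with earlier results of these data known. Hsp68, Hsp70Aa, Hsp70Ba and Hsp70Bb are the heat-inducible Hsp70 genes of the set. Hsc70-1 and Hsc70-2 are Hsp70 cognates, the name for family members that need no heat for their expression, and Hsc70-5 is the mitochondrial Hsp70. Hsp83 is the cytosolic Hsp90 and Trap1 the mitochondrial one.

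RNA-seq was carried out on 18 libraries in 6 groups of 3. Larvae carried mef2>NUAK550, mef2>NUAK548 or mef2>lacZ, and each genotype was taken as dissected L3 muscle carcass and as whole L3 larvae. The mef2 driver is active in muscle and is shared by all 6 groups, lacZ encodes a bacterial enzyme and served as the control, and the labels call both NUAK genotypes overexpression without saying what 548 and 550 stand for. Neither line background nor any other difference between lacZ and NUAK larvae can be told apart from NUAK itself, and nothing in the labels ties replicate libraries to different cultures or crosses, so the p-values rest on library-to-library variation, which may be technical.

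Hsp70 proteins bind exposed hydrophobic stretches of unfolded polypeptides in cycles of ATP binding and hydrolysis, helped by J-domain proteins that deliver the client and by nucleotide exchange factors that release it. Hsp90 proteins act later, on nearly folded clients, with a set of co-chaperones. In muscle both families serve sarcomere proteins, and the co-chaperone stv (starvin, a BAG-domain protein) works with Hsc70-4 in the removal of damaged filament proteins. The inducible genes are switched on by heat shock factor (Hsf), whereas the cognates are made in unstressed cells.

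Muscle libraries held 14577914 to 19771226 counted reads, and whole-larva libraries 14931020 to 22341807. Levels are CPM, the counts divided by the library's size and scaled over all 18 libraries by the trimmed mean of M values (TMM), and differences are log2 fold changes from edgeR's quasi-likelihood F test, called at an adjusted p below 0.05 (Benjamini-Hochberg over all genes tested). Nuak itself stood at 2218 to 5304 CPM in the 6 NUAK muscle libraries against 399 to 464 CPM in lacZ muscle, and at 1087 to 2288 CPM in the 6 whole NUAK libraries against 56.1 to 101 CPM in whole lacZ larvae. All 10 muscle markers had counts in every library, and their summed level was 28248 to 146719 CPM in muscle and 2496 to 25667 CPM in whole larvae. In whole larvae the first NUAK548 library stood apart from the other NUAK libraries in male germline markers. Calls of members that depend on it are given with and without it.

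Hsp68 was the member called in muscle by edgeR with all libraries. Hsp68 (FBgn0001230, chromosome arm 3R, 24055080 to 24057310, minus strand, a single exon of 2231 bases in the BDGP6 build) is a heat-inducible Hsp70 present in 1 copy, and 13 of its bases overlap neighbouring genes. Its level in muscle was 273, 338 and 345 CPM in the 3 NUAK550 libraries and 555, 423 and 513 CPM in the 3 NUAK548 libraries, against 116, 37.8 and 51.3 CPM in lacZ. All 6 NUAK libraries lay above all lacZ libraries, and NUAK548 lay above NUAK550 in every library. In lacZ the first library lay far above the other two.

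Against lacZ, Hsp68 rose 4.64-fold in NUAK550 muscle (log2 2.21, SE 0.37, adjusted p = 0.00876) and 7.31-fold in NUAK548 muscle (log2 2.87, SE 0.38, adjusted p = 0.00591). With both NUAK groups averaged the rise was 5.83-fold (log2 2.54, SE 0.35, adjusted p = 0.00399), and the call stayed in each of the 9 fits that left out 1 library (log2 2.26 to 3.14). Both NUAK groups were set against the same 3 lacZ libraries, so their fold changes share that error. Between NUAK550 and NUAK548 the difference in muscle was not called (log2 -0.66, SE 0.36, adjusted p = 0.331), although the libraries did not overlap.

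**Figure D1:**
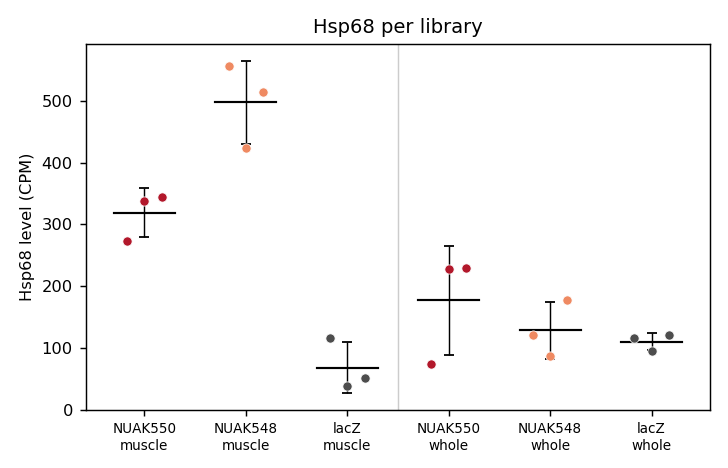
Hsp68 level in CPM (linear axis from 0) in each of the 18 libraries, by genotype and preparation, with points for libraries, long lines for group means and bars for 1 SD. The 6 NUAK muscle libraries sit between 273 and 555 CPM, above the 3 lacZ muscle libraries at 37.8 to 116 CPM, while the whole-larva groups overlap.

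In whole larvae the gene was not called. Hsp68 stood at 74.5, 227 and 229 CPM in NUAK550 and at 121, 86.4 and 178 CPM in NUAK548, against 116, 94.3 and 120.3 CPM in lacZ. The first NUAK550 library was the lowest of all 9 and the other NUAK550 libraries were the highest, so the groups overlapped. The mean NUAK difference was log2 0.50 (SE 0.37, adjusted p = 0.398), with log2 0.76 (SE 0.42, adjusted p = 0.247) for NUAK550 and log2 0.25 (SE 0.42, adjusted p = 0.793) for NUAK548.

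Tested directly, the NUAK effect on Hsp68 was 2.09 larger on the log2 scale in muscle than in whole larvae (SE 0.52), with an adjusted p of 0.0554 that just missed the threshold. It passed in 3 of 18 fits that left out 1 library. Those were the fits without the first lacZ muscle library (log2 2.71, adjusted p = 0.0215), without the first whole NUAK548 library (log2 1.99, adjusted p = 0.0203) and without the third of that group (log2 2.15, adjusted p = 0.0497). DESeq2 called it as well (log2 2.03, adjusted p = 0.00382).

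Of the 9 members, 7 had enough counts to be tested in muscle, and Hsp70Aa and Hsp70Ba did not. Hsp68 was the 1 member called with the NUAK groups averaged and in each group alone, and all 3 calls were rises. Over all genes 10.6% were called with the groups averaged (1041 of 9821), 12.6% in NUAK550 and 5.56% in NUAK548, so a count of 1 of 7 members is near the background. Of those 1041 genes, 476 were higher and 565 lower in NUAK muscle, which became 305 and 629 with library totals in place of TMM. For NUAK550 the split was 633 higher and 600 lower, or 381 and 855 with library totals. Between NUAK550 and NUAK548 muscle 0 of 7 members were called by edgeR and by DESeq2, where edgeR called 1.45% of all genes (92 higher and 50 lower, or 87 and 79 with library totals). An unadjusted p below 0.05 was reached there by 1 member and by 2021 of all 9821 genes. DESeq2 called 897 genes in that comparison.

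Cell type markers also differed among the muscle libraries. The summed muscle markers were at 95125 to 146719 CPM in NUAK550 and 28248 to 91278 CPM in NUAK548, against 47942 to 71816 CPM in lacZ. Of the 10 muscle markers edgeR called 0 with the NUAK groups averaged, 1 in NUAK550 (higher) and 0 in NUAK548. The NUAK548 library with the highest Hsp68, the first, had the lowest muscle marker sum. The 4 hemocyte markers summed to 566 to 1372 CPM in NUAK550 and 608 to 1109.6 CPM in NUAK548, against 456 to 673 CPM in lacZ, and 2 of the 4, NimC1 and eater, were called higher with the NUAK groups averaged. The RNAs lncRNA:roX1 and lncRNA:roX2, which coat the X chromosome of males in dosage compensation, summed to 61.6 to 67.0 CPM in NUAK550 and 137 to 343 CPM in NUAK548, against 504 to 568 CPM in lacZ. Both were called lower with the NUAK groups averaged and in NUAK550, and neither was in NUAK548 (adjusted p = 0.0576 and 0.0752). The 4 salivary gland markers summed to 44.7 to 1272 CPM in NUAK550 and 17.8 to 73.5 CPM in NUAK548, against 134 to 1081 CPM in lacZ, and none was called. The part of these differences in the Hsp68 values was not tested, and in bulk libraries such as these fewer cells of a type and less RNA per cell cannot be told apart.

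Hsp70Bb was the member called in whole larvae. Hsp70Bb (FBgn0013278, 3R, 12505793 to 12508139, plus strand, a single exon of 2347 bases) is one of 6 near-identical genes for the major heat-inducible Hsp70. Hsp70Aa (FBgn0013275, 3R, 11954163 to 11956544) and Hsp70Ab lie together at one cytological locus. Hsp70Ba (FBgn0013277, 3R, 12465453 to 12467776), Hsp70Bb, Hsp70Bbb and Hsp70Bc lie at the other. How the authors' counting treated reads that match several copies is not given in the sources used here, so the split between copies is uncertain. Their sum is given beside it, and it was tested between genotypes within a preparation but not between preparations.

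In whole larvae Hsp70Bb stood at 52.8, 62.0 and 49.9 CPM in NUAK550 and at 28.5, 24.9 and 24.5 CPM in NUAK548, against 7.55, 1.01 and 2.65 CPM in lacZ. The 3 groups did not overlap, with NUAK550 highest and lacZ lowest. The rise was 15.2-fold in whole NUAK550 larvae (log2 3.93, SE 0.62, adjusted p = 0.0384). The differences for NUAK548 (log2 2.81, SE 0.59, adjusted p = 0.150) and for both groups averaged (log2 3.37, SE 0.57, adjusted p = 0.0693) did not pass the threshold in this edgeR fit. DESeq2 called Hsp70Bb for NUAK548 (log2 2.81, adjusted p = 0.000294) and with both groups averaged (log2 3.36, adjusted p = 3.66e-08), and so did edgeR over all 18 libraries (log2 2.78, adjusted p = 0.0207, and log2 3.32, adjusted p = 0.00368).

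The call in NUAK550 was lost in 6 of 9 fits that left out 1 library, while the log2 fold change stayed at 3.48 or above in all 9. The adjusted p was 0.164, 0.144 and 0.102 when the first, the second and the third NUAK550 library were left out in turn. It was 0.144 when the third lacZ library was left out, and 0.0548 and 0.0516 when the second and the third NUAK548 library were. Without the first lacZ library the averaged NUAK difference was called as well (log2 4.43, adjusted p = 0.0198), as was NUAK548 (log2 3.87, adjusted p = 0.0342). Without the first NUAK548 library the averaged difference (log2 3.31, adjusted p = 0.00297) and NUAK548 (log2 2.70, adjusted p = 0.0165) were also called.

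Hsp70Bb was the 1 of 8 members tested in whole larvae that was called in NUAK550, where 0.808% of all genes were called (73 higher and 26 lower, or 64 and 41 with library totals). Without the first NUAK548 library 3 members and 3098 of 12370 genes were called in that comparison, and DESeq2 with all libraries called 2 members and 2419 genes. With the NUAK groups averaged 0 of 8 members were called by edgeR, with 3 at an unadjusted p below 0.05 and 1 (Hsp70Bb) called by DESeq2, against 0.424% of all genes. For NUAK548 edgeR again called 0 of 8, with 2 at an unadjusted p below 0.05 and 1 (Hsp70Bb) called by DESeq2, against 0.155% of all genes (7 higher and 12 lower, or 19 and 13 with library totals). Between NUAK550 and NUAK548 whole larvae edgeR called 0 of 8, with 4 at an unadjusted p below 0.05 and 1 (Hsp83) called by DESeq2, against 0.139% of all genes. These percentages are of genes called by edgeR. DESeq2 called 1250 of all 12255 genes with the groups averaged, 488 for NUAK548 and 1012 between the NUAK groups. Its member calls are to be read beside those counts. An unadjusted p below 0.05 was reached by 3550 of all 12255 genes with the groups averaged, 1292 for NUAK548 and 2625 between the NUAK groups. The unadjusted counts of members are to be read beside those.

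In muscle the order was different. Hsp70Bb stood at 113, 71.1 and 96.0 CPM in NUAK550 and at 49.2, 75.1 and 26.2 CPM in NUAK548, against 98.3, 97.2 and 119.7 CPM in lacZ. All 3 NUAK548 libraries lay below lacZ, and NUAK550 overlapped it. The difference was log2 -1.08 (SE 0.32, adjusted p = 0.0951) in NUAK548 and log2 -0.19 (SE 0.32, adjusted p = 0.735) in NUAK550. DESeq2 called the NUAK548 difference (log2 -1.09, adjusted p = 0.0180), and edgeR did so without the second NUAK548 library (log2 -1.48, adjusted p = 0.0375).

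The difference between the preparations was itself called. The NUAK effect on Hsp70Bb was 3.94 lower on the log2 scale in muscle than in whole larvae (SE 0.61, adjusted p = 0.00527), and it was called in all 18 fits that left out 1 library (log2 -5.12 to -3.57). For the summed Hsp70 copies this difference was not tested. With all libraries Hsp70Bb was the 1 of 9 members called in that test. Hsc70-1 (log2 3.99, SE 1.53, adjusted p = 0.201) and Hsc70-2 (log2 1.88, SE 0.93, adjusted p = 0.309) were not called. Without the first whole NUAK548 library 1858 genes and 4 members were called. Beside Hsp70Bb and Hsp68 these were Hsc70-1 (log2 6.07, adjusted p = 7.11e-05) and Hsc70-2 (log2 3.10, adjusted p = 1.25e-05). With all libraries 2.04% of all genes were called. Of those 254 genes the NUAK effect was higher in muscle for 139 and lower for 115, which became 79 and 213 with library totals and 103 and 160 with DESeq2's size factors. The median of all genes in this contrast was log2 0.11 with TMM and -0.0082 with library totals. Library totals also moved the median to log2 -0.12 in NUAK550 muscle and in whole NUAK550 larvae, to -0.14 between NUAK550 and NUAK548 muscle and to -0.27 between those groups in whole larvae, where TMM gave 0.03, 0.01, 0.01 and -0.06.

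In lacZ larvae Hsp70Bb averaged 105 ± 12.7 CPM in muscle and 3.74 ± 3.402 CPM in whole larvae (SD, n = 3 each), a 27.8-fold difference (log2 4.80, SE 0.55, adjusted p = 1.10e-05). The 6 copies together stood at 102, 98.4 and 123 CPM in lacZ muscle and at 8.46, 2.02 and 8.62 CPM in whole lacZ larvae. Their sum was not tested between preparations. Muscle markers varied among the whole-larva groups as well, with 0 of 10 called by edgeR in each comparison. Their sum was 21231 to 25667 CPM in NUAK550 and 2508 to 7185 CPM in NUAK548, against 2496 to 9278 CPM in lacZ, so NUAK550 did not overlap lacZ and NUAK548 did. The part of muscle RNA in the whole-larva values of Hsp70Bb was not tested.

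**Figure D2:**
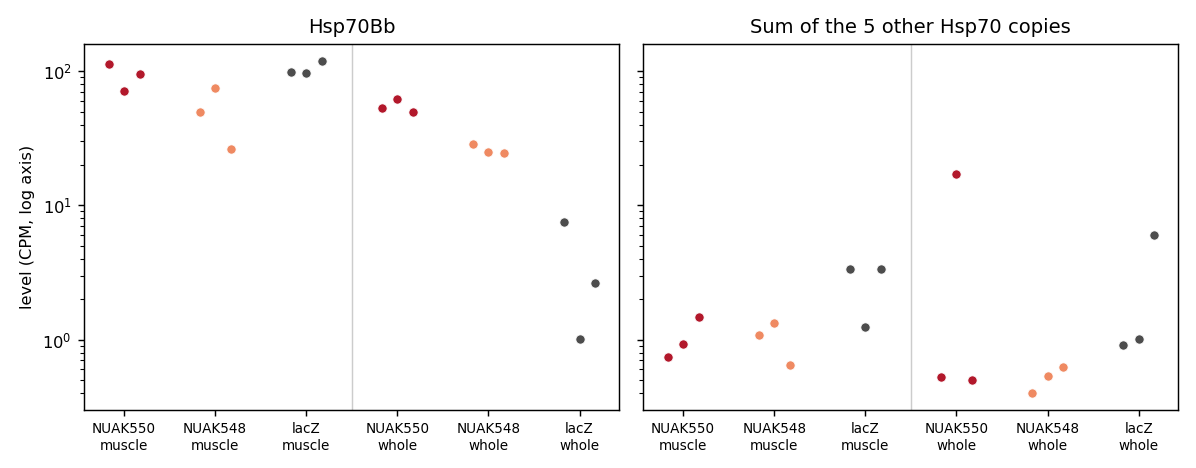
Level in CPM (log axis) of Hsp70Bb and of the sum of the 5 other near-identical Hsp70 copies in each library, with 1 point a library. In whole larvae Hsp70Bb lies at 49.9 to 62.0 CPM in NUAK550, 24.5 to 28.5 in NUAK548 and 1.01 to 7.55 in lacZ, while the other copies are at 1.01 CPM or less but for 17.3 CPM in the second NUAK550 library and 5.97 CPM in the third lacZ library.

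The other copies carried few reads. In muscle Hsp70Bb held 98.5% to 99.3% of the counts of the 6 copies in NUAK550, 97.6% to 98.3% in NUAK548 and 96.7% to 98.8% in lacZ. In whole larvae it held 99.01%, 78.2% and 99.005% in NUAK550 and 98.6%, 97.9% and 97.5% in NUAK548. In whole lacZ larvae it held 89.3% in the first library and 30.7% in the third, and in the second it had 20 counts beside 20 of the other copies. The other 5 copies together had 360 counts in the second NUAK550 library and 133 in the third lacZ library. In the remaining whole-larva libraries they had 9 to 22 counts.

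Hsp70Ba had 2, 194 and 8 counts in whole NUAK550 libraries and 4, 5 and 7 in NUAK548, against 12, 15 and 58 in lacZ. The second NUAK550 library, at 9.30 CPM, was the highest of all 18 and alone set the group apart. No difference was called. The NUAK550 value was log2 1.43 (SE 1.41, adjusted p = 0.509) with all libraries and log2 -2.44 (adjusted p = 0.229) without that one. In muscle Hsp70Ba had 6, 7 and 12 counts in NUAK550 and 9, 8 and 3 in NUAK548, against 9, 9 and 6 in lacZ.

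Hsp70Aa was at the edge of detection. It had 0, 37 and 2 counts in whole NUAK550 libraries and 0 in all 3 NUAK548 libraries, against 0, 2 and 34 in lacZ. The same 2 libraries that were high for Hsp70Ba were high here. In muscle it had 1, 0 and 0 counts in NUAK550 and 1, 1 and 0 in NUAK548, against 8, 0 and 13 in lacZ. At these depths the gene was not detectable in the libraries with a count of 0, which is not the same as absent, and it was tested in neither preparation alone.

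With the 6 copies summed into a single row, the picture in whole larvae was close to that of Hsp70Bb. The sum rose 10.1-fold in whole NUAK550 larvae (log2 3.33, SE 0.49, adjusted p = 0.0371). The call was lost in 5 fits, with an adjusted p of 0.1315, 0.1292 and 0.0902 without the first, the second and the third NUAK550 library and of 0.0790 and 0.0997 without the first and the third lacZ library. It did not pass for NUAK548 (log2 2.10, SE 0.47, adjusted p = 0.174) or with both groups averaged (log2 2.71, SE 0.45, adjusted p = 0.0636). Without the first NUAK548 library both were called (log2 1.99, adjusted p = 0.0262 for NUAK548, and log2 2.66, adjusted p = 0.00276 averaged), and DESeq2 called both with all libraries (log2 2.08, adjusted p = 0.00172, and log2 2.69, adjusted p = 9.45e-08). In muscle the sum differed by log2 -1.09 in NUAK548 (SE 0.32, adjusted p = 0.0932) and by log2 -0.21 in NUAK550 (SE 0.32, adjusted p = 0.706).

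Many Drosophila transgene vectors carry pieces of an Hsp70 gene and a white marker gene, and gene counts do not separate such RNA from that of the resident gene. The vectors of these lines are not described in the labels. The marker w stood at 29.5 to 29.6 CPM in whole NUAK550 larvae and 12.9 to 14.4 CPM in NUAK548, against 13.3 to 15.8 CPM in lacZ. In muscle it stood at 118 to 149 CPM in NUAK550 and 47.1 to 68.0 CPM in NUAK548, against 42.4 to 48.4 CPM in lacZ. The rise of w was called in NUAK550 muscle (log2 1.53, adjusted p = 0.00097) and whole larvae (log2 1.07, adjusted p = 0.00783) and not in NUAK548. Whether transgene RNA adds to the Hsp70Bb counts was not tested.

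The cognates Hsc70-1 and Hsc70-2 differed between libraries of the same genotype in whole larvae. Hsc70-1 (FBgn0001216, 3L, 13974061 to 13977761, 3 exons when overlapping ones are merged) stood in whole larvae at 0.0587, 0.240 and 0.308 CPM in NUAK550 and at 10.3, 0.0445 and 0.287 CPM in NUAK548, against 6.60, 6.31 and 6.96 CPM in lacZ. Hsc70-2 (FBgn0001217, 3R, 13044759 to 13047388, 2 exons) stood at 1.94, 3.02 and 1.66 CPM in NUAK550 and at 36.0, 2.13 and 2.11 CPM in NUAK548, against 30.4, 22.5 and 27.8 CPM in lacZ. For both genes 5 of 6 NUAK libraries lay far below lacZ, and the first NUAK548 library lay above all 3 lacZ libraries.

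In the edgeR fit of the whole-larva libraries neither gene was called. Hsc70-1 differed by log2 -4.89 in NUAK550 (SE 1.72, adjusted p = 0.0998) and by log2 -0.85 in NUAK548 (SE 1.43, adjusted p = 0.794). Hsc70-2 differed by log2 -3.535 in NUAK550 (SE 1.11, adjusted p = 0.0954) and by log2 -0.96 in NUAK548 (SE 1.00, adjusted p = 0.757). In NUAK550 Hsc70-2 was called by DESeq2 (log2 -3.56, adjusted p = 0.00527) and by edgeR over all 18 libraries (log2 -3.61, adjusted p = 0.0179), and the fit over 18 libraries also called Hsc70-1 there (log2 -4.95, adjusted p = 0.0240) and Hsc70-2 with the NUAK groups averaged (log2 -2.30, adjusted p = 0.0421). Without the first NUAK548 library both were called with the NUAK groups averaged, at log2 -5.07 (adjusted p = 3.43e-05) for Hsc70-1 and log2 -3.59 (adjusted p = 7.13e-06) for Hsc70-2. In those fits both genes were also called for each NUAK group alone, at log2 -4.84 to -5.30 for Hsc70-1 and -3.53 to -3.65 for Hsc70-2. The number of all genes called in that comparison was 2721 without the library and 52 with it.

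The 9 male germline markers showed the same libraries high and low. They summed to 33.4, 29.4 and 32.5 CPM in whole NUAK550 and to 291, 23.4 and 16.1 CPM in NUAK548, against 225, 214 and 226 CPM in lacZ. All 9 had counts in the lacZ libraries and in the first NUAK548 library, and between 6 and 8 had counts in the other NUAK libraries, with nht at 0 in 4 of those 5. The roX RNAs summed to 22.9 to 26.8 CPM in NUAK550 and to 184, 21.6 and 19.3 CPM in NUAK548, against 166 to 195 CPM in lacZ. The labels give no sex for these larvae, and the part of male germline RNA in the Hsc70-1 and Hsc70-2 values was not tested.

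**Figure D3:**
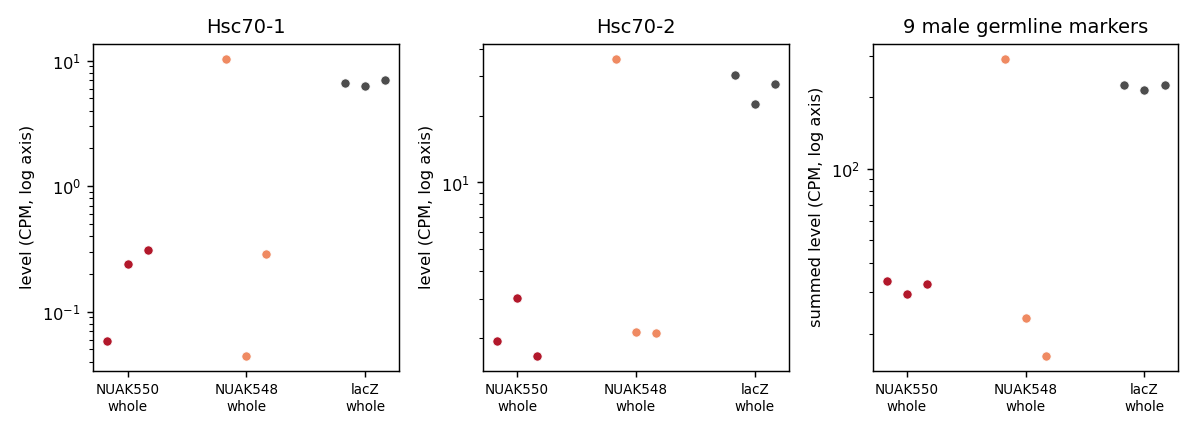
Levels in CPM (log axes) of Hsc70-1, of Hsc70-2 and of 9 male germline markers summed, in the 9 whole-larva libraries, with 1 point a library. In all 3 panels the first NUAK548 library lies above lacZ and the 5 other NUAK libraries lie below it.

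A pair of genes from the list of mitochondrial chaperonins had the same pattern. Hsp60B stood at 0.176 to 0.240 CPM in whole NUAK550 and at 0.0479 to 51.0 CPM in NUAK548, against 32.1 to 37.4 CPM in lacZ. Hsp60C stood at 0.294 to 0.848 CPM in NUAK550 and at 0.192 to 89.1 CPM in NUAK548, against 64.0 to 84.3 CPM in lacZ. Neither was called by edgeR with the NUAK groups averaged (adjusted p = 0.150 for both). These 2 were named after their values had been seen.

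In muscle the libraries of a group lay closer together. Hsc70-2 stood at 12.7, 18.035 and 13.0 CPM in NUAK550 and at 11.7, 12.3 and 10.3 CPM in NUAK548, against 13.6, 22.4 and 16.1 CPM in lacZ. NUAK548 lay below lacZ in every library, without a call (log2 -0.62, SE 0.23, adjusted p = 0.159). Hsc70-1 had 10, 12 and 17 counts in NUAK550 and 3, 3 and 10 in NUAK548, against 5, 3 and 4 in lacZ. NUAK550 lay above lacZ in every library, also without a call (log2 1.69, SE 0.61, adjusted p = 0.109). Hsc70-1 had enough counts to be tested in muscle mainly through its NUAK550 libraries, so its being tested depended in part on its level there. The male germline markers in muscle summed to 61.2 to 80.2 CPM in NUAK550 and 56.1 to 74.0 CPM in NUAK548, against 63.9 to 79.4 CPM in lacZ, of which bol alone held 45.5 to 71.9 CPM in a library.

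The remaining 3 members are expressed without heat and were not called in any NUAK comparison by edgeR with all libraries. Hsp83 (FBgn0001233, 3L, 3192969 to 3197059, 2 exons, 15 bases shared with CG14966) stood in muscle at 1155, 1270.2 and 994 CPM in NUAK550 and at 1205, 1485 and 957 CPM in NUAK548, against 1214, 1245 and 1429.9 CPM in lacZ. The groups overlapped, and the mean NUAK difference was log2 -0.15 (SE 0.15, adjusted p = 0.544). Its whole-larva levels were 1061, 1384 and 991 CPM in NUAK550 and 1670.2, 1645 and 2134 CPM in NUAK548, against 1290.0, 1236 and 1615 CPM in lacZ. There NUAK548 lay above every other whole-larva library, and NUAK550 was lower than NUAK548 by log2 -0.63 (SE 0.18, adjusted p = 0.197), a difference that DESeq2 called (log2 -0.63, adjusted p = 0.00828).

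Hsc70-5 (FBgn0001220, 2R, 14252598 to 14256192, 6 exons), which folds proteins imported into mitochondria, was the most even member. Its 18 libraries ran from 113 to 151 CPM. In muscle it averaged 135 ± 11.8 CPM in NUAK550 and 129 ± 18.04 CPM in NUAK548, against 127 ± 11.98 CPM in lacZ (SD, n = 3 each). Its whole-larva means were 129.7 ± 17.98 CPM in NUAK550 and 134 ± 15.3 CPM in NUAK548, against 135 ± 11.2 CPM in lacZ. The mean NUAK difference was log2 0.04 (SE 0.11, adjusted p = 0.838) in muscle and log2 0.01 (SE 0.12, adjusted p = 0.945) in whole larvae, and its sign changed with the scaling (log2 -0.03 and -0.0018 with library totals).

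Trap1 (FBgn0026761, 2R, 6633647 to 6636262, 3 exons), an Hsp90 of the mitochondrial matrix, stood in muscle at 38.4, 28.8 and 29.1 CPM in NUAK550 and at 37.1, 44.3 and 30.5 CPM in NUAK548, against 26.3, 29.6 and 32.8 CPM in lacZ. Its whole-larva levels were 33.1, 33.7 and 40.0 CPM in NUAK550 and 47.4, 32.9 and 31.2 CPM in NUAK548, against 41.9, 44.5 and 43.1 CPM in lacZ. The lacZ whole libraries lay close together and above 5 of 6 NUAK libraries, the exception being again the first NUAK548 library. The mean NUAK difference was log2 0.21 (SE 0.14, adjusted p = 0.373) in muscle and log2 -0.19 (SE 0.15, adjusted p = 0.407) in whole larvae. In the fits that left out 1 library the whole-larva value ran from log2 -0.31 to -0.13, and the lowest edgeR adjusted p was 0.0648.

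**Figure D4:**
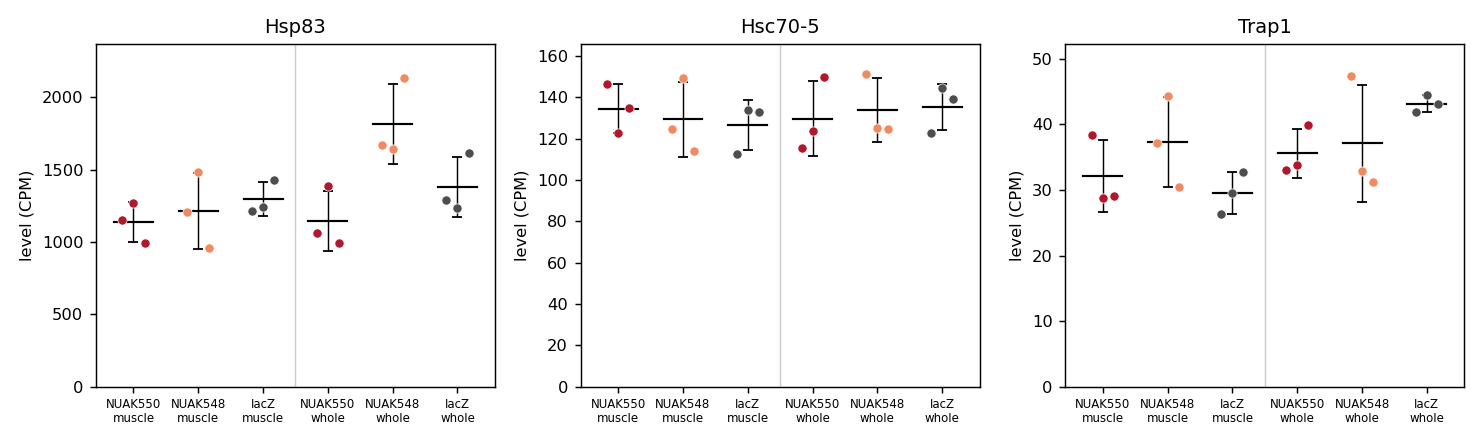
Levels in CPM (linear axes from 0) of Hsp83, Hsc70-5 and Trap1 in each library, with points for libraries, long lines for group means and bars for 1 SD. Groups overlap in muscle for all 3 genes, and in whole larvae Hsp83 is highest in NUAK548, at 1645 to 2134 CPM.

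**Figure D5:**
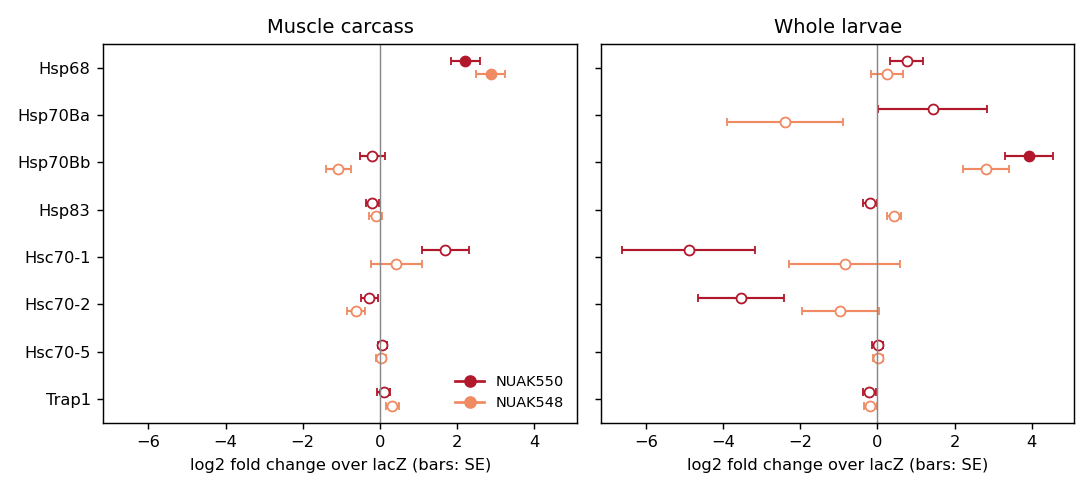
Log2 fold change against lacZ, with bars for 1 SE, of the members tested in muscle (left) and whole larvae (right), for NUAK550 and NUAK548. Filled points passed an adjusted p of 0.05, which were Hsp68 in muscle for both genotypes and Hsp70Bb in whole larvae for NUAK550.

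Between the preparations of lacZ larvae, 3 of 9 members differed, where 59.5% of all genes did. Muscle was 27.8-fold above whole larvae for Hsp70Bb, as given above. It was below whole larvae for Hsc70-1 (log2 -4.46, SE 1.33, adjusted p = 0.0113), with 12 counts over the 3 muscle libraries and 440 over the whole ones. Trap1 was lower in muscle by a smaller margin (log2 -0.55, SE 0.17, adjusted p = 0.0160), at 29.6 ± 3.22 CPM in muscle and 43.2 ± 1.25 CPM in whole larvae (SD, n = 3 each). This last call was lost without the first lacZ muscle library (adjusted p = 0.0626) and without the first (adjusted p = 0.0548) or the second (adjusted p = 0.0626) whole lacZ library.

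This comparison depends on the scaling. TMM placed lacZ muscle 0.49 higher on the log2 scale relative to lacZ whole larvae than library totals did. Of all genes called, 2789 were higher and 4612 lower in muscle with TMM, and 1308 were higher and 7083 lower with library totals. The median over all genes was log2 -0.21 with TMM and -0.70 with library totals. With library totals 6 members were called, since Hsp68 (log2 -1.19), Hsp83 (log2 -0.59) and Hsc70-5 (log2 -0.59) joined them.

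Per kilobase of exon, which allows levels to be compared between genes, Hsp83 was the highest member in all 6 groups. Its mean level was 385 CPM per kb in NUAK550 muscle and 411 in NUAK548 muscle, against 438 in lacZ muscle, and 387 in whole NUAK550 and 614 in whole NUAK548 larvae, against 466 in whole lacZ larvae. Hsp68 came second in NUAK muscle, at 143 ± 17.8 CPM per kb in NUAK550 and 223 ± 30.3 in NUAK548 (SD, n = 3 each). In lacZ muscle Hsp70Bb (44.8 ± 5.40 CPM per kb) and Hsc70-5 (43.3 ± 4.10) followed Hsp83 and lay within each other's spread. Hsp68 came next, at 30.6 ± 18.7 CPM per kb, an SD wide enough to reach both. Among all genes ranked by CPM per kb, Hsp68 was 590th in NUAK550 muscle and 396th in NUAK548 muscle, against 2151st in lacZ muscle.

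In whole lacZ larvae Hsp68 (49.4 ± 6.25 CPM per kb) and Hsc70-5 (46.3 ± 3.82) followed Hsp83 and were within each other's spread. Below them came Trap1 (17.4 ± 0.506), Hsc70-2 (12.4 ± 1.85), Hsc70-1 (2.44 ± 0.120) and Hsp70Bb (1.59 ± 1.45 CPM per kb). Hsp70Ba and Hsp70Aa were last, at 0.553 ± 0.495 and 0.228 ± 0.358 CPM per kb. In whole NUAK550 larvae Hsp70Bb, at 23.4 ± 2.69 CPM per kb, came next after Hsp83, Hsp68 (79.3 ± 39.7) and Hsc70-5 (44.4 ± 6.15). Hsc70-2 there was at 1.01 ± 0.331 CPM per kb.

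The ratio of Hsp68 to Hsp83, both per kb, was taken within each library and does not depend on scaling. It sets a heat-inducible member against one that is also expressed without heat. It was 0.313, 0.353 and 0.460 in NUAK550 muscle and 0.611, 0.378 and 0.712 in NUAK548 muscle, against 0.127, 0.0403 and 0.0476 in lacZ muscle. In whole larvae it was 0.0932, 0.218 and 0.306 in NUAK550 and 0.0960, 0.0697 and 0.111 in NUAK548, against 0.119, 0.101 and 0.0989 in lacZ. The muscle groups did not overlap with lacZ and the whole-larva groups did.

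Genes that work beside these chaperones were described by lists. In muscle 1 of 4 constitutive Hsp70 and Hsp110 relatives was called with the NUAK groups averaged, where 10.6% of all genes were, and the median of the 4 was log2 0.24. The gene was Hsc70-4, the main cytosolic Hsp70 cognate, which rose 1.56-fold (log2 0.64, SE 0.12, adjusted p = 0.0139). Hsc70-4 stood at 8422, 7262 and 7543 CPM in NUAK550 and at 4873, 6397 and 4746 CPM in NUAK548, against 3998, 4045 and 4202 CPM in lacZ. All 6 NUAK libraries lay above lacZ. The rise was called in NUAK550 (log2 0.90, SE 0.14, adjusted p = 0.00577) and not in NUAK548 (log2 0.38, SE 0.14, adjusted p = 0.150), and the difference between those groups was not called (log2 0.53, adjusted p = 0.0984).

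In the same comparison edgeR called 0 of 16 J-domain proteins, 0 of 4 nucleotide exchange factors, 0 of 13 Hsp90 co-chaperones, 0 of 3 heat shock regulators and 0 of 2 mitochondrial chaperonins, against the same 10.6% of all genes. Their median log2 fold changes were 0.17, 0.14, -0.02, -0.06 and -0.04, beside 0.01 over all genes. An unadjusted p below 0.05 was reached by 2618 of all 9821 genes. It was reached by 7 of the J-domain proteins, 3 of the co-chaperones, 1 of the regulators and 0 of the exchange factors and chaperonins. The most abundant of each were Droj2 (log2 -0.07, SE 0.08, adjusted p = 0.613), stv (log2 0.19, SE 0.18, adjusted p = 0.525), the Hsp90 co-chaperone p23 (log2 0.05, SE 0.12, adjusted p = 0.819), the heat-induced noncoding RNA lncRNA:Hsromega (log2 0.32, SE 0.19, adjusted p = 0.321) and Hsp60A (log2 0.17, SE 0.12, adjusted p = 0.393). Gp93, the Hsp90 of the endoplasmic reticulum, was not called either (log2 0.32, SE 0.21, adjusted p = 0.359). Hsf itself differed by log2 -0.06 (SE 0.08, adjusted p = 0.694).

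In the single NUAK groups other genes of these lists were called in muscle, all of them higher than in lacZ. In NUAK550, where 12.6% of all genes were called, these were 2 of 16 J-domain proteins, CG5001 (log2 1.07, SE 0.28, adjusted p = 0.0424) and CG5504 (log2 0.50, SE 0.13, adjusted p = 0.0358). In NUAK548, where 5.56% were called, they were 2 other J-domain proteins, shv (log2 0.65, SE 0.15, adjusted p = 0.0382) and P58IPK (log2 0.59, SE 0.14, adjusted p = 0.0464), and Hsc70-3, the Hsp70 of the endoplasmic reticulum (log2 0.66, SE 0.15, adjusted p = 0.0401). Hsc70-3 averaged 865 ± 40.4 CPM in NUAK550 and 1524 ± 301 CPM in NUAK548, against 959 ± 117 CPM in lacZ (SD, n = 3 each), and it was lower in NUAK550 than in NUAK548 (log2 -0.83, SE 0.15, adjusted p = 0.0385).

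Of 11 other heat-inducible genes tested in muscle 1 was called with the NUAK groups averaged, again beside 10.6% of all genes. It was l(2)efl, which encodes a small heat shock protein related to vertebrate alphaB-crystallin and stood at 10153, 10847 and 10923 CPM in NUAK550 and at 8696, 11717 and 11041 CPM in NUAK548, against 485, 590 and 561 CPM in lacZ. The gene l(2)efl rose 19.2-fold with the NUAK groups averaged (log2 4.26, SE 0.17, adjusted p = 2.14e-05), with no overlap of libraries. Its NUAK effect was larger in muscle than in whole larvae by log2 2.68 (SE 0.19, adjusted p = 1.51e-05). The median of the 11 genes was log2 -0.19. Hsp23, a small heat shock protein gene, overlapped between genotypes, with 320.3 to 1146 CPM in NUAK550 and 379 to 1101 CPM in NUAK548, against 636 to 1394 CPM in lacZ. Hsp22 had no counts in any library, and all of its exon bases overlap CG4456.

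In whole larvae l(2)efl alone among the genes of these lists was called by edgeR with the NUAK groups averaged, and it rose (log2 1.65, SE 0.17, adjusted p = 0.0155), where 0.424% of all genes were called. The other 10 heat-inducible genes tested, 4 Hsp70 and Hsp110 relatives, 17 J-domain proteins, 4 nucleotide exchange factors, 13 Hsp90 co-chaperones, 3 regulators, 4 mitochondrial chaperonins and Gp93 were not. Of the 11 heat-inducible genes 7 had an unadjusted p below 0.05, where 3550 of all 12255 genes did. So had 1 of the Hsp70 and Hsp110 relatives, 2 of the J-domain proteins, 1 exchange factor, 1 regulator, 2 chaperonins and 0 of the co-chaperones. The median of the 11 heat-inducible genes was log2 -0.42, beside 0.01 over all genes, so more of them were lower than higher. Hsp23 stood in whole larvae at 355 to 1219 CPM in NUAK550 and 703 to 2088 CPM in NUAK548, against 1894 to 3355 CPM in lacZ. Hsc70-4 differed there by log2 0.28 (SE 0.11, adjusted p = 0.152) and stv by log2 0.73 (SE 0.20, adjusted p = 0.141).

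The genes whose level ran most like that of Hsp68 over the 18 libraries, by Pearson correlation of log2 CPM among 12418 other genes, were puc (r = 0.877), PK2-R1 (0.865), Sox102F (0.850), Bhmt (0.849) and CG14451 (0.847). The gene puc encodes a phosphatase that acts on the JNK kinase, and PK2-R1 a neuropeptide receptor. In muscle puc averaged 119.8 CPM in NUAK550 and 139 CPM in NUAK548, against 56.1 CPM in lacZ, and in whole larvae 74.3 and 69.8 CPM, against 62.1 CPM in lacZ. Bhmt, named for betaine-homocysteine methyltransferase, averaged 349.8 CPM in NUAK550 muscle and 562 CPM in NUAK548 muscle, against 87.1 CPM in lacZ muscle. These values come from the same libraries as Hsp68 and share their depth and composition, so they are a description.

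Likeness was weaker for Hsp83, whose own range was narrow. The 5 genes closest to it were CG9302 (r = 0.772), CG8388 (0.755), su(Hw) (0.734), CG3225 (0.716) and bbc (0.697). The insulator protein gene su(Hw) averaged 48.1 CPM in whole NUAK550 and 58.9 CPM in whole NUAK548, against 53.2 CPM in whole lacZ larvae, and bbc 77.4 and 107 CPM, against 98.5 CPM.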

How the data were processed

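Raw counts per gene were deposited by the authors for each of 18 libraries. The submitters' processing notes name Trimmomatic 0.36, STAR 2.5.2b, Subread 1.5.2 with featureCounts, DESeq2 and the build BDGP6. How multiply mapping reads and strand were handled is not given in the sources used here. Normalized tables of the authors were not used here. The members and all gene lists were chosen with earlier results of these data known. Coordinates and exon lengths are those of the deposited files. Symbols came from a reference annotation, with 17137 of 17411 identifiers matched directly and 98.3% of shared ones at the same start and end.

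The counts were tested with edgeR 4.0.16 in R 4.3.3 (quasi-likelihood F test, two-sided, after filterByExpr and TMM, which gave factors of 0.726 to 1.413 over the 18 libraries). One model per preparation took 9 libraries in 3 groups (6 residual degrees of freedom). A model of all 18 (12 residual degrees of freedom) gave the difference of the NUAK effect between preparations and lacZ muscle against lacZ whole larvae. P-values were adjusted over all genes tested. The scripts were tested on simulated data. Libraries of a group were no copies of each other (lowest chi-square per degree of freedom 40.0), and their log2 CPM correlated at 0.971 to 0.985 in muscle and 0.844 to 0.991 in whole larvae.

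All 9 members were set to be named, but values of members not called are not printed for every comparison. Of 8 companion lists (55 genes), those called for the mean NUAK effect were named, up to 8 a list, along with the most abundant gene of each list. Hsf, Hsp22, Hsp23, Hsp60B, Hsp60C, Hsc70-3, CG5001, CG5504, shv and P58IPK were named after their values had been seen. For Hsp68 and Hsp83 the 5 most correlated genes were named (prior count 2).

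The main fits hold no replicate block. Deviations of same-numbered libraries from their group means correlated at -0.246 to 0.174 in muscle and -0.0404 to 0.362 in whole larvae. For whole NUAK548 and lacZ all 3 pairs were above 0.1 (0.168, 0.362 and 0.293), so numbers may pair there, and a replicate block called 13 genes and 0 members, against 19 and 0 without it. The headers of the whole NUAK550 count files carry the numbers 2, 3 and 5 where the labels have 1 to 3, and the labels were followed. Alternatives were DESeq2 1.42.0, its size factors within edgeR, no filter on low counts, a replicate block, a fit over all libraries, the 6 Hsp70 copies summed, CPM by library total and leaving out each library. Library totals in place of TMM, and leaving out libraries in the model of all 18, were added after seeing the data.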

Additional observations from a re-analysis of the deposited data

Results flagged for a closer look

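The NUAK effect on Hsp70Bb differed between the preparations by log2 -3.94 (muscle minus whole larvae, SE 0.61, adjusted p = 0.00527), which the interaction term of the model of all 18 libraries tested directly. The summed Hsp70 copies were not tested in that term. Hsp70Bb averaged 93.2 ± 20.9 CPM in NUAK550 muscle and 50.2 ± 24.5 CPM in NUAK548 muscle, against 105 ± 12.7 CPM in lacZ muscle. In whole larvae it averaged 54.9 ± 6.31 CPM in NUAK550 and 25.9 ± 2.18 CPM in NUAK548, against 3.74 ± 3.402 CPM in lacZ (SD, n = 3 each).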

How the results depend on the processing

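The number of libraries (3 a group) limits the precision, and Hsp70Aa, Hsp70Ba and, in muscle, Hsc70-1 rest on few counts. The rise of Hsp68 in muscle was called under every alternative run. Of the other settings for single members, 383 log2 fold changes kept their direction and side of the threshold, 14 reversed, 14 became called and 1 lost its call. Without 1 library, 766 kept both, 36 reversed, 17 became called and 9 lost their call. Levels by library total moved by more than 1 SD for 26 of 54 means. The cause of the differences between settings was not tested.

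DESeq2 called 1661 genes for averaged NUAK muscle, 1880 for NUAK550 muscle, 1132 for NUAK548 muscle (2 members) and 897 between NUAK550 and NUAK548 muscle. In whole larvae it called 1250 genes and 1 member for the averaged effect, 2419 and 2 for NUAK550, 488 and 1 for NUAK548, and 1012 and 1 between the NUAK groups. For the difference between preparations it called 824 genes and 2 members. Its log2 fold change of the summed Hsp70 copies was called at -1.10 in NUAK548 muscle, 2.69 for averaged whole NUAK larvae and 2.08 in whole NUAK548 larvae. A fit over all 18 libraries called 1412 genes and 2 members for averaged whole NUAK larvae, 2576 and 3 for NUAK550, 77 and 1 for NUAK548, and 208 genes between them, with the summed copies called at 2.65 in the averaged comparison. Library totals called 6 members between lacZ muscle and whole lacZ larvae, and 32 genes for whole NUAK548.

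With a replicate block, 520 genes were called for averaged NUAK muscle, 572 for NUAK550, 222 for NUAK548 and 26 between them, and in whole larvae 13 for the averaged effect and 10 between the NUAK groups. The block left 0 members called in whole NUAK550, where Hsp70Bb had log2 4.17 (edgeR adjusted p = 0.0501) and the summed copies 3.42 (adjusted p = 0.0543), and it changed no other count of members by over 1.5 times. No label says that equal numbers share a batch.

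With all libraries, reversed values were those of Hsc70-5 and Trap1. For Hsc70-5 library totals gave log2 -0.03 for the difference between preparations and for averaged NUAK muscle, -0.08 for NUAK550 muscle, -0.11 between NUAK550 and NUAK548 muscle, -0.0018 for averaged whole NUAK larvae and -0.12 for whole NUAK550, and they gave Trap1 -0.06 in NUAK550 muscle. For Hsc70-5 in whole larvae DESeq2's size factors gave -0.0033 averaged and -0.01 for NUAK550, DESeq2 -0.0029 and -0.01, and the fit over 18 libraries -0.04 averaged, -0.06 for NUAK550 and -0.02 for NUAK548.

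Leaving out 1 library gave 410 to 978 genes called for averaged NUAK muscle, 403 to 1297 for NUAK550, 174 to 529 for NUAK548 (1 to 2 members) and 27 to 174 between them. In whole larvae it gave 3 to 2721 averaged, 12 to 3098 for NUAK550, 4 to 2271 for NUAK548 (0 to 3 members in each) and 1 to 48 between them, and 118 to 1858 (1 to 4 members) for the difference between preparations. The counts of 2721, 3098, 2271 and 1858 were those without the first whole NUAK548 library. The summed copies ran from -1.47 to -0.79 in NUAK548 muscle, 2.30 to 3.00 for averaged whole NUAK larvae, 2.92 to 3.62 for NUAK550 and 1.67 to 2.38 for NUAK548.

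Members whose sign changed without 1 library had these log2 ranges. In muscle, Hsc70-5 had -0.05 to 0.11 averaged, -0.02 to 0.13 for NUAK550, -0.09 to 0.09 for NUAK548 and -0.03 to 0.15 between them. Hsp83 had -0.27 to 0.03 for NUAK548 and -0.24 to 0.06 between the NUAK groups, Trap1 -0.05 to 0.17 for NUAK550, and Hsc70-1 -0.51 to 0.78 for NUAK548. In whole larvae, Hsc70-5 had -0.05 to 0.07 averaged, -0.10 to 0.09 for NUAK550, -0.11 to 0.08 for NUAK548 and -0.12 to 0.12 between them. Hsp70Ba had -2.41 to 0.51 averaged, -2.44 to 2.42 for NUAK550 and -0.06 to 4.38 between them, and Hsp68 -0.03 to 0.46 for NUAK548. Between the whole NUAK groups Hsc70-1 had -4.61 to 0.45, Hsc70-2 -3.08 to 0.12 and Trap1 -0.15 to 0.21. For the difference between preparations Hsc70-5 had -0.05 to 0.14 and Hsp70Ba -0.65 to 2.38, and between lacZ muscle and whole lacZ larvae Hsc70-5 had -0.14 to 0.03 and Hsp83 -0.17 to 0.08.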
